A study of Mus musculus with 18 samples.

Results

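The clock output genes described here are Dbp, Tef, Per1, Per2, Per3, Nr1d1, Nr1d2, Ciart, Cry1 and Cry2, taken by gene symbol from the annotation of the array. They are 10 of the 16593 genes with a probe in the non-normalized tables, where 17 of the 25697 probes read them. The 18 arrays were Illumina mouse bead arrays, and the brightness of a bead reports the abundance of its transcript. WT normoxia and WT hypoxia are lungs of wild type mice, and KO normoxia and KO hypoxia are lungs of IL-4 KO mice, which lack the type 2 cytokine interleukin-4. All 12 lung donors were male, of C57BL/6 background and 8 to 12 weeks old, and lived under 12 h of light and 12 h of dark in room air or, for the hypoxic groups, at 10% O2 for 4 days, with 3 animals in each group and 1 array for each. Vehicle and rIL-4 are cultured cells labelled pulmonary microvascular endothelial cells (PMVEC) from female wild type C57BL/6 mice of 4 to 6 weeks, at passages 3 to 5, given recombinant IL-4 at 50 ng/mL or vehicle for 24 h, with 3 samples in each. How the knockout allele was made, which part of Il4 it removes and the clock time of harvest are matters not given in the sources used here. Because the labels do not say whether the PMVEC samples were separate cultures, p-values in the cells may measure technical spread alone.

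The mammalian circadian clock is a transcriptional feedback loop present in nearly every cell. A heterodimer of CLOCK with the product of Arntl (BMAL1) binds E-box sequences and drives the genes of its own repressors, the period proteins (Per1, Per2, Per3) and the cryptochromes (Cry1, Cry2), and of the nuclear receptors REV-ERB alpha and beta (Nr1d1, Nr1d2), which in turn repress Arntl. Dbp and Tef encode PAR bZIP factors that carry the rhythm to D-box sequences of output genes, and Ciart encodes a further repressor of CLOCK and BMAL1. In rodent lung these transcripts cycle over the day, and Arntl peaks at nearly the opposite time from Dbp. Per1 and Per2 can also be induced by glucocorticoids.

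The start regions of 3 members are shown because they had a called change in the fit with 1 probe per gene and have an entry among the RefSeq promoter windows (GRCm38.p6, from 250 bases before to 50 after the annotated start, printed along the gene's strand). Dbp lies at chr7:45704997-45705296 on the plus strand, Ciart at chr3:95882179-95882478 on the minus strand and Cry2 at chr2:92434020-92434319 on the minus strand. Capitals mark an E-box, CACGTG, or its variant CACGTT in either orientation.
Dbp: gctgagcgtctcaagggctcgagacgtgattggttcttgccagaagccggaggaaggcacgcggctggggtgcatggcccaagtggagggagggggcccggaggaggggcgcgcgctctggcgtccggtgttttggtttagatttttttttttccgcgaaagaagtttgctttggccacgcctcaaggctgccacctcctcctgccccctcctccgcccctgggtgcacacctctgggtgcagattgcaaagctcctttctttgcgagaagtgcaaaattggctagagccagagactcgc
Ciart: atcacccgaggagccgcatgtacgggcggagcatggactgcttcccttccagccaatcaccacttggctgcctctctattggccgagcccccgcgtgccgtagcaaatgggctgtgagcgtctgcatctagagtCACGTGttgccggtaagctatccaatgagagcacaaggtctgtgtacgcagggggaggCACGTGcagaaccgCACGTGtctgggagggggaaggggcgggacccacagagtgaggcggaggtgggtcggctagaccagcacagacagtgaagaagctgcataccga
Cry2: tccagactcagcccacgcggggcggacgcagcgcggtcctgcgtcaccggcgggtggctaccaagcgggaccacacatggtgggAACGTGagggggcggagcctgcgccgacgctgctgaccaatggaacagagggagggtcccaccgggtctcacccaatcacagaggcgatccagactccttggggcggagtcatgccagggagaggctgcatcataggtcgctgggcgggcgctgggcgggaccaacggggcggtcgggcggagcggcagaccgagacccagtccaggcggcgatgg
The Ciart window held 3 E-boxes, which begin at positions -116, -58 and -44 relative to the start, the Cry2 window held 1 variant E-box at -166, and the Dbp window held neither motif. RefSeq windows were found for 9 of the 10 members, 11 windows in all, and Per2 was the member without one. The E-box occurred in 5 of these 11 windows, belonging to Tef, Per1, Ciart and Cry1, against 7.15% of 32851 mouse windows of the same length. The variant occurred in 3 windows, of Nr1d1, Cry1 and Cry2, against 4.68% of all windows. The D-box TTANNTAA occurred in 2 windows, of Tef and, in 2 copies, of Per3, against 6% of all. Both strands were searched, and no motif overlapped another. A ROR element, TAGGTCA, and a cAMP response element, TGACGTCA, occurred in none of the 11 windows, against 2.61% and 1.79% of all. These matches describe letters in the windows only.

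A probe counts as detected where its detection p-value against negative control beads is under 0.05, which held for 60.2% to 64.2% of probes per lung array and 45.1% to 46.9% per cell array. Precision is limited by the number of arrays. The Il4 probe read 7.25 to 8.26 on the log2 scale in the 6 wild-type lungs and 4.97 to 5.86 in the 6 knockout lungs, which checks the labels only if the probe lies within the deletion. It was detected on all 6 wild-type arrays and on 2 of 3 arrays of each knockout group. Liver transcripts stood apart in KO normoxia. The raw signals of 19 liver marker genes summed to 36542 to 169863 there, against 5930 to 10668 in WT normoxia, 4439 to 6923 in WT hypoxia and 10607 to 19670 in KO hypoxia. Alb, Tat and Hpd were detected on no WT normoxia, WT hypoxia or KO hypoxia array, Cyp3a11 on no WT hypoxia array, and Fgb on no lung array. The cells labelled PMVEC went against their label in part. Of 9 endothelial markers, Cdh5, Tek, Tie1, Emcn and Vwf were detected on none of the 6 arrays and Pecam1 on 1, whereas Eng and Egfl7 were detected on 6 and Kdr on 5; 5 of 8 fibroblast markers were detected on all 6, and of 9 epithelial markers the surfactant genes and Scgb1a1, 5 in all, were detected on none. The remaining epithelial markers were detected in part, Foxj1 and Aqp5 on all 6 arrays, and Cdh1 on 2 and Krt8 on 1 of the vehicle arrays and on 0 of the rIL-4 arrays. They are therefore called the cultured cells below.

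In lung, 9 of the 10 members were detected on 12 of 12 arrays by at least 1 probe and were tested. The single Cry1 probe was detected on none of the 18 arrays, with detection p-values between 0.725 and 1, so Cry1, a cryptochrome gene like Cry2, has no measured level here. Tef, Per1, Nr1d1, Nr1d2 and Ciart had 2 probes each and Per2 had 3, of which the third was detected on 1 lung array. The probe of highest mean stands for the gene unless a second probe is named. Values are normalized log2 signals, and levels of different genes are not compared because probes differ in brightness. Whole-lung RNA mixes many cell types, and fewer cells of a type cannot be told apart from less RNA per cell.

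**Figure D1:**
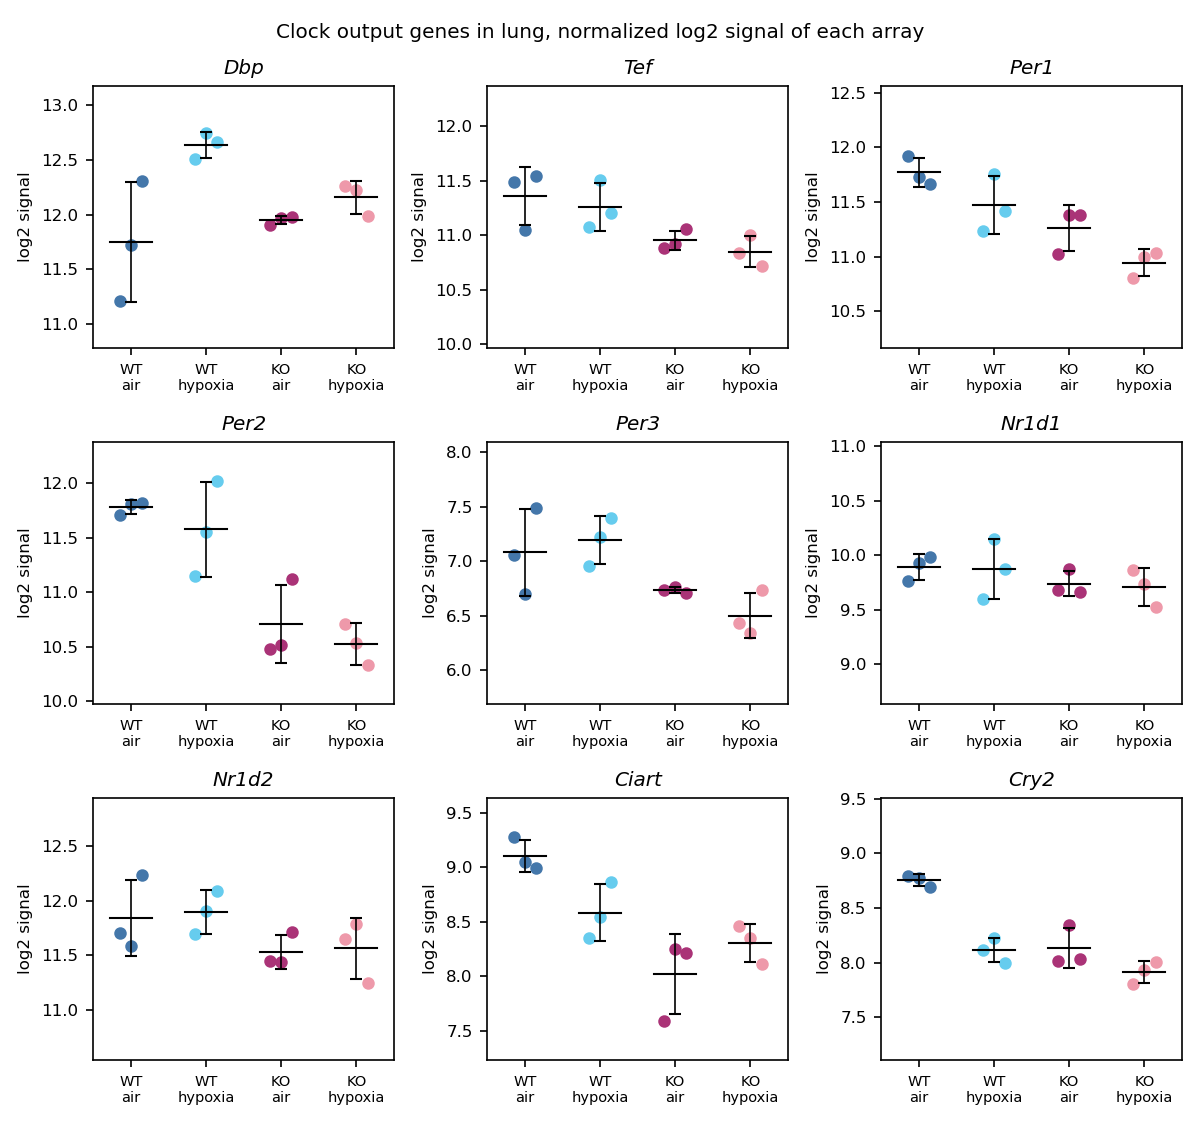
Normalized log2 signal of the 9 members measured in lung, 1 point per array, in wild-type (WT) and IL-4 knockout (KO) lungs in room air or hypoxia; lines are group means and bars 1 SD (n = 3), and each panel spans the same 2.4 log2 units. Dbp is highest in WT hypoxia, Ciart and Cry2 are highest in WT normoxia, and Per2 lies between 11.15 and 12.02 in wild type and between 10.33 and 11.12 in the knockout.

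The first question was how these genes differed between wild-type lungs after 4 days of hypoxia and wild-type lungs in room air. The clock time of harvest is not given. A difference between groups in time of day cannot be told apart from oxygen or genotype, here and in the lung comparisons below. Dbp, the PAR bZIP output factor, rose 1.86-fold and Cry2, a cryptochrome repressor, fell 1.56-fold, while the period genes, both REV-ERB genes and Tef did not pass the test. Dbp read 11.20, 11.73 and 12.30 in WT normoxia and 12.51, 12.75 and 12.66 in WT hypoxia. The room-air lungs were spread widely, and the hypoxic lungs lay close together above all of them. The log2 change was 0.89 (SE 0.21, 95% interval 0.43 to 1.35, adjusted p = 0.0171 by limma with Benjamini-Hochberg adjustment over 12571 genes).

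Cry2 read 8.80, 8.78 and 8.70 in WT normoxia and 8.12, 8.22 and 8.00 in WT hypoxia. All 3 hypoxic lungs lay below all 3 room-air lungs, with little spread in either group, and the log2 change was -0.64 (SE 0.12, adjusted p = 0.00433). Ciart, the repressor of CLOCK and BMAL1, read 9.27, 9.05 and 9.00 in room air and 8.35, 8.54 and 8.86 under hypoxia. Its groups did not overlap either, but the log2 change of -0.52 missed the threshold (SE 0.19, adjusted p = 0.0991). The second Ciart probe, at 9.27, 9.01 and 8.17 in room air and 7.91, 8.20 and 8.30 under hypoxia, had overlapping groups and a change of -0.68 (adjusted p = 0.155 over probes). The Ciart value passed when KO normoxia 1 was left out (adjusted p = 0.044) or when the liver marker level was a covariate (0.0417). The calls over all genes were 1527 and 1409 in these fits, against 1483 in the main fit.

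Of the 9 members 1 rose, where 7.48% of all genes rose, and 1 fell, where 4.32% fell; together 2 of 9 were called against 11.8% of all genes. The groups did not overlap for 3 of the 9, against 28.9% of all genes, and the median change of the members was -0.10 against 0.00 over all genes. Per1 changed by -0.30, with a 95% interval of -0.64 to 0.04, and Per2 by -0.20, from -0.67 to 0.26. Per3, the third period gene, changed by 0.11, Nr1d1 by -0.02, Nr1d2 by 0.05 and Tef by -0.10, with adjusted p between 0.75 and 0.961. These 4 intervals all included 0 and reached at most 0.52 in size.

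The Dbp call depended on single arrays and on the pooled spread. Without WT normoxia 2 the adjusted p was 0.0557, without WT hypoxia 2 it was 0.063, and with the fit restricted to the 2 groups compared it was 0.0684, while the log2 change stayed between 0.62 and 1.17 over 20 alternatives. In these 3 settings the calls over all 12571 genes also fell, from 1483 to 886, 982 and 1025 in that order. The probes of Tef disagreed. The brighter probe, for transcript NM_017376, is the one described above, whereas the dimmer probe, for transcript NM_153484, read 7.05, 6.67 and 6.47 in room air and 5.56, 6.08 and 6.13 under hypoxia. Its groups did not overlap, and it fell by 0.81 in the fit over probes (SE 0.23, adjusted p = 0.0403). The neutrophil transcripts S100a8 and S100a9 also fell in this comparison, among 2 of 9 leukocyte markers called. The summed raw signal of the 9 leukocyte markers ran from 52535 to 116097 in WT normoxia and from 55228 to 60083 in WT hypoxia, and none of the 9 was undetected in any lung group. In the same comparison 5 of 8 fibroblast markers rose, and their summed raw signal went from 42408 to 51227 in WT normoxia to 95764 to 110397 in WT hypoxia. Of all genes, 7.48% rose and 4.32% fell. The part of these cell types in the clock gene values was not tested.

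In knockout lung, hypoxia was followed by smaller differences in Dbp and Cry2. Dbp read 11.91, 11.97 and 11.97 in room air and 12.26, 12.23 and 11.98 under hypoxia, with a log2 change of 0.21 (95% interval -0.25 to 0.67, adjusted p = 0.646). Cry2 read 8.02, 8.35 and 8.04 in room air and 7.81, 7.93 and 8.01 under hypoxia, a change of -0.22 (-0.48 to 0.04, adjusted p = 0.331). For both genes the groups narrowly failed to overlap, as was the case for 2 of the 9 members and for 27.2% of all genes. The limma test called 0 of the 9 members against 8.78% of all genes, and 0 of the 9 had an unadjusted p under 0.05, against 20.8% of all genes. The other 7 changes lay between -0.32 for Per1 and 0.29 for Ciart. All 17 tested liver markers fell in this comparison, against 480 of all 12571 genes. With KO normoxia 1 and 2, the arrays of highest liver marker level, left out together, 0 members were called, and the calls over all 12571 genes went from 1104 to 316.

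Whether the change under hypoxia differed between the genotypes was tested as an interaction, the change in knockout lung minus that in wild-type lung. The interaction was -0.69 for Dbp (SE 0.30, adjusted p = 0.371), 0.81 for Ciart (SE 0.27, adjusted p = 0.209) and 0.42 for Cry2 (SE 0.17, adjusted p = 0.318). None passed, so the smaller changes of Dbp and Cry2 in the knockout were not shown to differ from those in wild type. By limma 0 of 9 members were called, against 0.0159% of all genes, and 3 of 9 had an unadjusted p under 0.05, against 12.4% of all genes. The interactions of Tef, Per1, Per2, Nr1d1 and Nr1d2 lay between -0.03 and 0.03, and that of Per3 was -0.35.

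**Figure D2:**
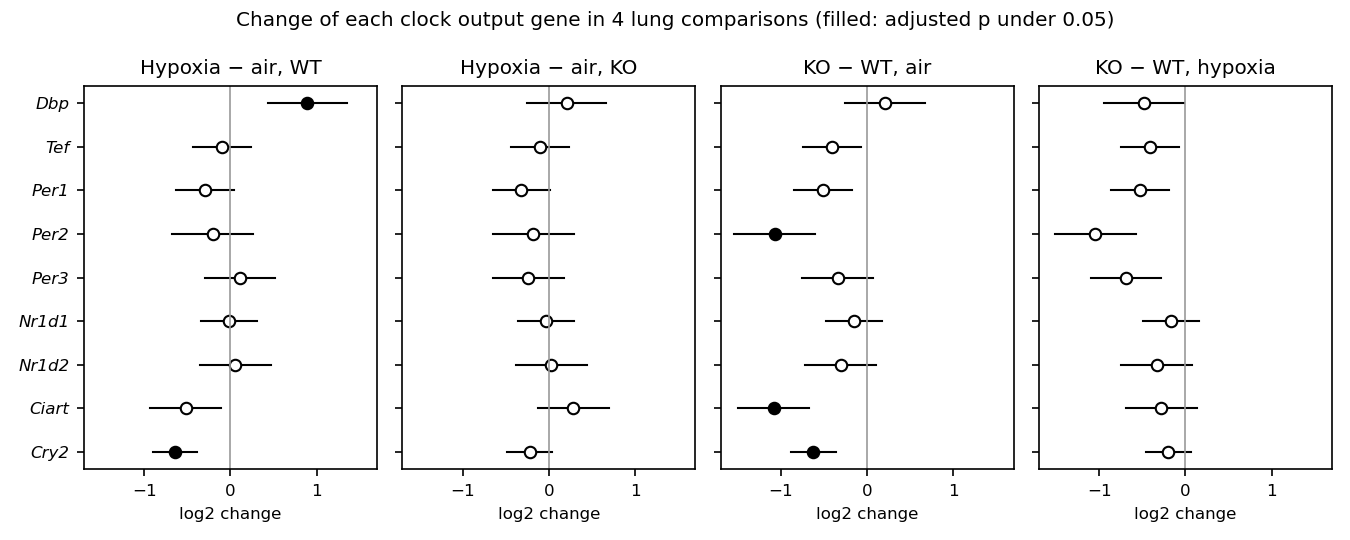
Log2 change of each member in 4 lung comparisons, as points with 95% intervals from the limma fit over 12 arrays; filled points have an adjusted p under 0.05. Dbp (0.89) and Cry2 (-0.64) are filled for hypoxia in wild type, and Per2 (-1.07), Ciart (-1.09) and Cry2 (-0.62) for knockout against wild type in room air.

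The genotypes were compared in room air next. Ciart and Per2, both repressors within the loop, were 2.12-fold and 2.11-fold lower in knockout lung, and Cry2 was 1.54-fold lower. Per2 read 11.71, 11.81 and 11.82 in the wild-type lungs and 10.48, 10.52 and 11.12 in the knockout lungs. Every knockout lung lay below every wild-type lung, and KO normoxia 3 was the nearest to them. The log2 change was -1.07 (SE 0.22, adjusted p = 0.0119), and the second Per2 probe, with -0.94 (adjusted p = 0.0189 over probes), moved alike.

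Ciart read 7.59, 8.25 and 8.22 in KO normoxia, all below the wild-type values given above, with KO normoxia 1 lowest. Its change was -1.09 (SE 0.19, adjusted p = 0.00563), and its second probe changed by -1.34 (adjusted p = 0.0164 over probes). The Cry2 change was -0.62 (SE 0.12, adjusted p = 0.00945). Again no knockout lung reached the wild-type range.

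These 3 of 9 members were lower, against 2.96% of all genes, and 4 of 9 had knockout values wholly below wild type, against 12.1% of all genes. The fourth was Per1, which read 11.92, 11.73 and 11.67 in WT normoxia and 11.02, 11.38 and 11.38 in KO normoxia. Its change of -0.51 missed the threshold (SE 0.15, adjusted p = 0.0687), as did that of its second probe, -0.70 (adjusted p = 0.0555 over probes). Tef changed by -0.40, Per3 by -0.34, Nr1d2 by -0.31 and Nr1d1 by -0.15, with adjusted p between 0.143 and 0.593. Dbp, at 0.20, was the 1 positive value of the 9, and the median over the members was -0.40 against -0.02 over all genes. The members were chosen with earlier results of these data known, so their shares beside those of all genes are a description only.

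The liver transcripts moved with this comparison, in which 15 of 17 tested liver markers were higher in the knockout. Of all 12571 genes, 514 were higher. The mean log2 deviation of the list was 3.65, 1.91 and 1.25 on the KO normoxia arrays and -0.48, -0.60 and -1.47 on the WT normoxia arrays. With that level as a covariate 0 members were called, while the calls over all 12571 genes went from 886 to 2. The member changes were then -0.49 for Per2 (SE 0.43, adjusted p = 0.68), -0.47 for Ciart (SE 0.35, adjusted p = 0.614) and -0.57 for Cry2 (SE 0.26, adjusted p = 0.38). With KO normoxia 1 and 2 left out together, a setting chosen after seeing the data that leaves 1 knockout array and assumes that it varies like the other groups, 0 members and 77 of all genes were called, and the changes were -0.66, -0.89 and -0.72. Per2 also missed the threshold without KO normoxia 2 (adjusted p = 0.0517), and Cry2 did so with only the 2 groups in the fit (0.0519). The calls over all genes went from 886 to 473 and 415 in these fits. Leukocyte markers differed as well, with Cd79a, Cd79b and Cd3e, genes of B and T cell receptors, among 3 of 9 that were higher in the knockout; their part in the clock gene values was not tested.

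Under hypoxia all 9 members were lower on average in knockout lung, but none passed. Per2 read 11.15, 11.56 and 12.02 in WT hypoxia and 10.71, 10.54 and 10.33 in KO hypoxia. The groups did not overlap, and the log2 change of -1.05 was close in size to that in room air (SE 0.22, adjusted p = 0.13; the interaction was 0.03 with a 95% interval of -0.64 to 0.69). Per3 read 6.96, 7.22 and 7.40 in WT hypoxia and 6.43, 6.34 and 6.74 in KO hypoxia, a change of -0.69 (adjusted p = 0.264).

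Per1 changed by -0.53 (adjusted p = 0.305), Dbp by -0.48 (0.624) and Tef by -0.41 (0.525), and for these 3, as for Per2 and Per3, each knockout value lay below each wild-type value. That made 5 of 9 members below, against 6.33% of all genes. By limma 0 of 9 were called, against 0.0557% of all genes, and 5 of 9 had an unadjusted p under 0.05, against 7.52% of all genes. As in room air, the way the members were chosen makes these shares a description only. Ciart, Cry2, Nr1d1 and Nr1d2 changed by -0.28, -0.20, -0.17 and -0.33, with overlapping groups. Liver markers were called in neither direction here, with a median change of 1.67 over 17 genes.

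The comparisons share arrays, WT normoxia in particular. Cry2 and Ciart were highest there and lower in each of the other groups, so their values in hypoxia (-0.64 and -0.52) and in room-air knockout (-0.62 and -1.09) rest on the same 3 arrays. Cardiac muscle transcripts were also highest on average in WT normoxia. The mean log2 deviation of 6 tested markers was 1.12, 0.67 and 1.40 there and, on the WT hypoxia arrays, -0.92, -0.17 and 0.66. The KO normoxia arrays gave 0.46, -0.26 and 0.24, and the KO hypoxia arrays -2.91, 0.52 and -0.82, of which the first was the lowest of the 12. The raw signals of the 7 markers with a probe summed to 10441 to 15229, 4938 to 11483, 7144 to 8604 and 1549 to 9999 in the same order, with Ryr2 detected on no lung array. In each lung comparison 0 of the 6 were called, and their part in the clock gene values was not tested. The order of group means for Cry2 was WT normoxia 8.76 ± 0.05, KO normoxia 8.13 ± 0.18, WT hypoxia 8.11 ± 0.11 and KO hypoxia 7.91 ± 0.10 (SD, n = 3), where KO normoxia and WT hypoxia differed by less than their spread. For Ciart the order was WT normoxia 9.10 ± 0.15, WT hypoxia 8.58 ± 0.26, KO hypoxia 8.31 ± 0.18 and KO normoxia 8.02 ± 0.37, where WT hypoxia overlapped KO hypoxia and KO hypoxia overlapped KO normoxia. Per2 fell into another order, WT normoxia 11.78 ± 0.06, WT hypoxia 11.58 ± 0.43, KO normoxia 10.71 ± 0.36 and KO hypoxia 10.53 ± 0.19. In either genotype its room-air and hypoxia groups differed by less than the larger SD. Dbp ran from WT hypoxia 12.64 ± 0.12 through KO hypoxia 12.16 ± 0.15 and KO normoxia 11.95 ± 0.04 to WT normoxia 11.74 ± 0.55, whose spread covered both knockout groups. Tef had means of 11.36, 11.26, 10.95 and 10.85 in WT normoxia, WT hypoxia, KO normoxia and KO hypoxia, with the 2 wild-type groups overlapping each other and the 2 knockout groups likewise. Per1 ran in the same order, 11.77, 11.47, 11.26 and 10.94, and Per3 ran 7.19 in WT hypoxia, 7.08 in WT normoxia, 6.74 in KO normoxia and 6.50 in KO hypoxia, each group overlapping the next. Nr1d1 and Nr1d2 had group means within 9.71 to 9.89 and 11.53 to 11.90, with overlapping neighbours throughout.

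Among the other genes of the core loop, Arntl, the partner of CLOCK, fell under hypoxia in both genotypes. It read 9.42, 9.29 and 8.72 in WT normoxia and 8.21, 8.01 and 7.90 in WT hypoxia, a change of -1.10 (adjusted p = 0.000936). In the knockout it read 9.23, 9.23 and 9.32 in room air and 8.59, 8.65 and 8.77 under hypoxia, a change of -0.59 (adjusted p = 0.0439). Hypoxic lungs were below room-air lungs in each genotype without overlap. The interaction of 0.52 did not pass (adjusted p = 0.385), nor did the difference between genotypes under hypoxia, 0.63 (adjusted p = 0.233).

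Of the 9 core loop partners with a probe, 5 were tested in lung, and Arntl was the 1 called in either hypoxia comparison. Clock, Rora, which encodes an activator of Arntl, Nfil3, a D-box repressor, and Bhlhe40, an E-box repressor, changed by -0.18, -0.44, -0.48 and 0.25 in wild-type hypoxia (adjusted p between 0.141 and 0.509). Npas2, Rorb, Hlf and Bhlhe41 were detected on no lung array. None of the 5 was called between genotypes.

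Dbp and Arntl moved in opposite directions from lung to lung. Over the 12 arrays Pearson's r was -0.905 and Spearman's rho -0.93, and r was -0.942 without WT normoxia 1 and WT hypoxia 2, the 2 arrays farthest from the Dbp median. On deviations from the group means r was -0.908, and WT normoxia 3 had both the highest Dbp and the lowest Arntl of its group. That value rests mostly on the WT normoxia arrays. The SD of Dbp was 0.55 there, against 0.12 in WT hypoxia, 0.04 in KO normoxia and 0.15 in KO hypoxia. These correlations are descriptions over arrays that share the normalization and the 4 groups. Of 11512 named non-member genes, 5 had a lower r with Dbp than Arntl had. The other members followed Arntl less closely. Over the 12 arrays their r with Arntl was -0.50 for Nr1d2, -0.40 for Per3, -0.28 for Nr1d1 and -0.24 for Per2. It was -0.21 for Tef, -0.06 for Ciart, 0.13 for Per1 and 0.42 for Cry2. With Dbp, r of the members ran from -0.51 for Cry2 to 0.49 for Nr1d2. Nfil3 had an r with Dbp of -0.66 over the 12 arrays and -0.91 on deviations from the group means. Its values too were most widely spread in WT normoxia, at 9.80, 9.14 and 8.39.

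**Figure D3:**
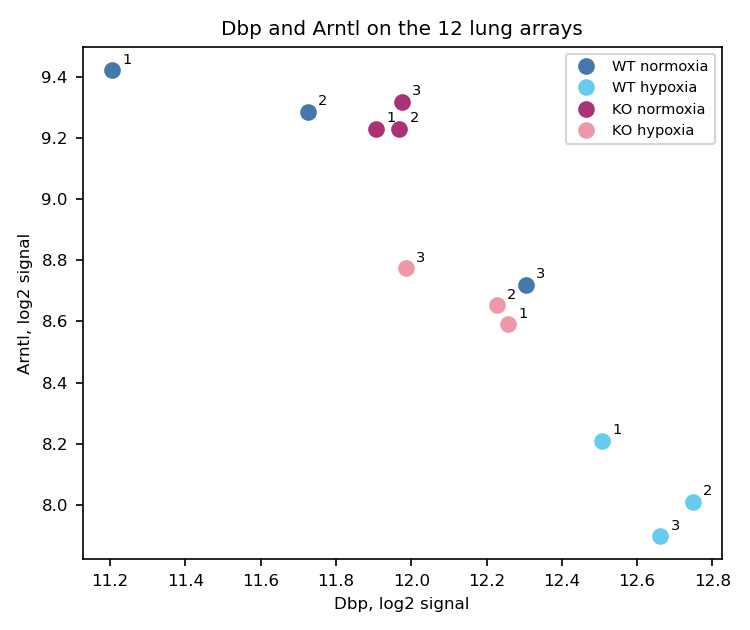
Normalized log2 signal of Dbp (horizontal) against Arntl (vertical) on the 12 lung arrays, coloured by group and numbered by replicate. The 3 WT hypoxia arrays lie at the lower right, with Dbp of 12.51 or more and Arntl of 8.21 or less, and WT normoxia runs from 11.20 and 9.42 to 12.30 and 8.72.

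Other lists around the clock gave the following counts. Of all 12571 genes, 940 rose under hypoxia in wild type and 624 in the knockout, and 372 were lower in room-air knockout lung. Of 10 tested clock kinases, ligases and cofactors, 1 rose under hypoxia in each genotype, Timeless, a replication fork protein related to the fly clock gene, by 0.52 in wild type (adjusted p = 0.0435) and 0.82 in the knockout (0.00495). Of 9 rhythmic output genes of many tissues, 0 were called under hypoxia in either genotype, and 1, Noct, a rhythmic phosphatase also called nocturnin, was lower in room-air knockout lung by 0.54 (log2 change -0.54, adjusted p = 0.0413).

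Of 13 tested glucocorticoid-responsive genes, 9 fell under hypoxia in wild type, with a median change of -0.70, 2 fell in the knockout, and 6 were lower in room-air knockout lung, with a median of -0.61. Of all 12571 genes, 543, 480 and 372 were called lower in these comparisons, in that order. Tat is on this list and on the liver list. In wild-type hypoxia Pdk4, a kinase that inhibits pyruvate dehydrogenase, changed by -1.95, Fkbp5, a co-chaperone of the glucocorticoid receptor, by -1.49, Cdkn1a, a cell cycle inhibitor, by -1.21 and Klf9 by -0.83. In room-air knockout lung Fkbp5 changed by -2.53, Pdk4 by -1.99, Cdkn1a by -1.67 and Tsc22d3, the leucine zipper GILZ, by -0.94. The mean log2 deviation of the 13 genes was 0.96, 0.54 and 0.06 in WT normoxia, which puts WT normoxia 1 highest, and lay between -0.50 and 0.24 on the other 9 lung arrays. The part of these genes in the clock gene values was not tested. Of 13 immediate early genes, 5 fell under hypoxia in each genotype, among them Fosb, whose log2 change was -1.57 in wild type and -2.06 in the knockout.

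The genes whose pattern over the 12 lung arrays was most like the mean of the 9 standardized members were Pde4dip (r = 0.905), Hspa2 (0.866), Abca8a (0.865), Slc35a5 (0.865) and Hspa4l (0.863), and the most opposite were Septin1 (-0.93), Slamf6 (-0.878), Ctsw (-0.856), Arl16 (-0.851) and Tmem9b (-0.851). For Dbp alone they were Rab3il1 (0.925), Pcdh7 (0.913), Pygb (0.906), Mgll (0.904) and Zfp521 (0.902) at one end and Ifitm6 (-0.935), Ppp2r3c (-0.93), Trem3 (-0.915), S100a9 (-0.91) and Bex4 (-0.905) at the other. All are the ends of a search over 11512 genes on 12 arrays and are a description without a test.

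In the cultured cells, no member passed the test after rIL-4. Of the 10 members 8 were tested, since Cry1 and Per3 were detected on 0 of 6 arrays, whereas Per3 was detected on 12 of 12 lung arrays. Dbp read 10.05, 10.02 and 10.00 with vehicle and 10.28, 9.94 and 9.99 with rIL-4. The groups overlapped, and the change was 0.05 (95% interval -0.21 to 0.30, adjusted p = 0.942).

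Ciart read 5.62, 5.60 and 5.71 with vehicle and 5.89, 5.86 and 5.75 with rIL-4. It was the 1 member of 8 whose groups did not overlap, against 16.4% of all genes, and its change of 0.19 did not pass (95% interval -0.03 to 0.41, adjusted p = 0.556). The other 6 changes lay between -0.20 for Tef and 0.19 for Per2, and the widest interval, that of Cry2, ran from -0.52 to 0.21. Cry2 was detected on 2 vehicle arrays and 1 rIL-4 array. Several members were dim in these cells, where the median raw signal per array was 52.3 to 59.4. Raw signals ran from 51.2 to 73.2 for Cry2, 79 to 92 for Ciart and 92.7 to 110.3 for Nr1d1. They ran from 105.4 to 128.1 for Nr1d2, 104.4 to 134.6 for Per2 and 132.8 to 163.3 for Per1. Tef, at 217.3 to 297.8, and Dbp, at 976.3 to 1362.6, were brighter. The second, dimmer Per1 probe lay below vehicle on all rIL-4 arrays, with a change of -0.32 (adjusted p = 0.28 over probes), while the first changed by -0.12 with overlap. By limma 0 of 8 members were called, against 1.67% of 9017 genes, and 0 of 8 had an unadjusted p under 0.05, against 11.2% of all genes.

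For 10 of the 17 member probes, those of Tef, Per1, Nr1d2 and Ciart and 2 of Per2, the authors' log2 table held other values in the cells than the non-normalized table. The largest difference per probe was alike within each gene's pair. It was 2.74 log2 units for Tef, 1.25 for Per1, 1.56 for Per2, 1.32 for Nr1d2, and 0.438 and 0.442 for Ciart. Whether values were exchanged within these pairs was not tested. Over the whole array, 18115 of 25697 probes matched within 0.02 log2 units in the cells. With the log2 table in place of the signals 0 members were called as well. In that fit Tef, Per1, Nr1d2 and Ciart rested on the values that differed, so it cannot check the results of these genes. Of 7 tested core loop partners none was called. Rora changed by -0.47 (adjusted p = 0.0923) and Clock by -0.42 (adjusted p = 0.186), each with all rIL-4 values below all vehicle values. Nfil3 lay the other way, at 9.60, 9.53 and 9.49 with rIL-4 and 9.20, 9.31 and 9.32 with vehicle. The groups did not overlap for 16.4% of all genes. Immediate early genes were the 1 list with calls in these cells among those tested, with Fos, Egr1 and Jun higher after rIL-4 by 1.81, 0.65 and 0.49 among 11 tested. Of all 9017 genes, 102 rose and 49 fell.

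**Figure D4:**
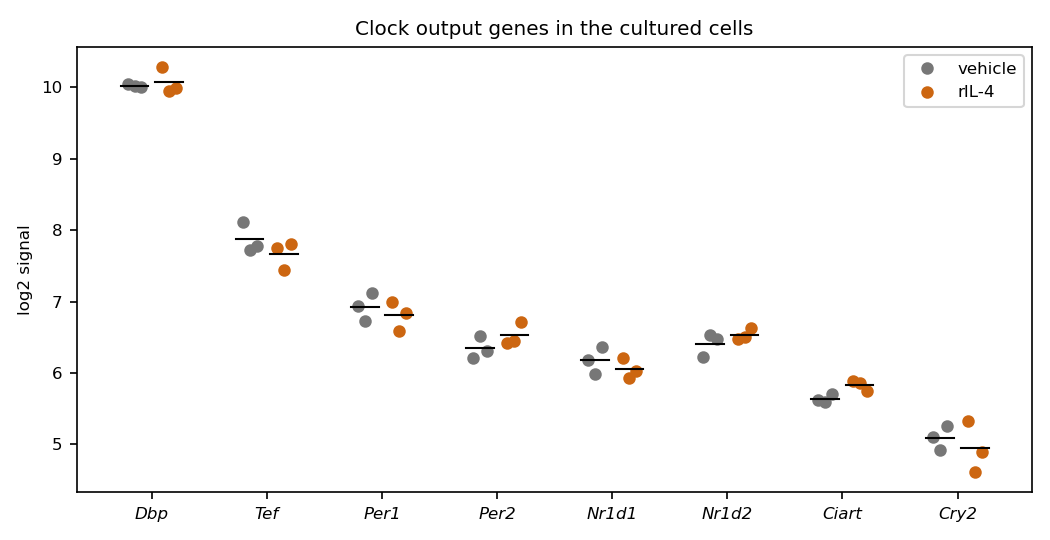
Normalized log2 signal of the 8 members tested in the cultured cells, 1 point per array, with vehicle in grey and rIL-4 in orange; lines are group means (n = 3). The groups overlap for every member except Ciart, where vehicle spans 5.60 to 5.71 and rIL-4 spans 5.75 to 5.89.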

How the data were processed

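Per the labels' protocols, RNA was extracted with Trizol, purified on columns and amplified with biotin label; the submitters' processing notes name BeadStudio. The authors deposited, for each probe and array, a non-normalized signal intensity and a detection p-value, and a table of log2 values that served as an alternative. In R 4.3.3 with limma 3.58.1, the lung set of 12 arrays and the cell set of 6 each went through neqc, which estimates background from the detection p-values (offset 16), quantile normalizes and gives log2 values. A probe had to be detected (p under 0.05) on 3 or more arrays, which left 17112 and 11947 probes, and the brightest probe on average stood for its gene. Each set had 1 linear model over its groups (lmFit, eBayes), with two-sided p-values adjusted by Benjamini-Hochberg at 0.05 over 12571 and 9017 genes. The fits were tested on simulated data. Dim probes have compressed changes. The members and gene lists were chosen with earlier results of these data known. All members, all core loop partners and up to 4 called genes with the largest change per other list are named. Alternatives were other filters, background, normalization, values, probe choice, groups fitted, a liver covariate and arrays left out. Arrays of a group correlated at 0.988 to 0.997 across probes, and 0 pairs were identical.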

Additional observations from a re-analysis of the deposited data

How the results depend on the processing

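Under 20 alternatives for hypoxia in wild-type lung, Cry2 was called in 20 and Dbp in 17. The member count, 2, became 1 with only the 2 groups in the fit and ran from 1 to 3 on leaving out each array in turn. The calls over all 12571 genes went from 1483 to 1025 with only the 2 groups. They ran from 886 to 1805 on leaving out each array. For genotype in room air the count of 3 became 0 with the liver marker level as a covariate and 0 with KO normoxia 1 and 2 left out together, settings under which the calls over all 12571 genes went from 886 to 2 and to 77, and ran from 2 to 3 on leaving out each array. In those 21 alternatives Ciart was called in 19 and Per2 and Cry2 in 18 each. On leaving out each array in turn, the calls over all genes in this comparison ran from 409 to 1235. For hypoxia in knockout lung, genotype under hypoxia, the interaction and rIL-4 the count was 0 in every alternative run, and from 0 to 0 on leaving out each array. The main fit called 1104, 7 and 2 of 12571 genes and 151 of 9017 genes in these comparisons, in that order. No called change turned its sign. Without background correction Per1 was also called in room air (adjusted p = 0.038), where the calls over all genes were 1039 against 886 in the main fit. The cause of these changes was not tested. No paired analysis was possible because the groups compared share no replicate numbers in the labels. Signals near background, as for Cry1, for Per3 and Cry2 in the cells and for the dimmer Tef probe, limit what can be read.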

Other observations

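The mean of the 9 members in lung, each standardized over the 12 arrays, ran from 0.38 to 1.22 in WT normoxia and from -0.13 to 0.93 in WT hypoxia. It ran from -0.88 to -0.33 in KO normoxia and from -1.01 to -0.55 in KO hypoxia. The wild-type lungs lay above the knockout lungs in this mean, which is a description without a test. Per1, Nr1d1 and Il4 lie on chromosome 11 (GRCm38.p6), and the other members on chromosomes that do not hold Il4.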
